A study of Rattus norvegicus with 6 samples.

Results

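Transcripts of 45 genes that encode molecular chaperones, chaperonins, enzymes of protein folding in the endoplasmic reticulum (ER) and heat shock factors were followed in rat subchondral bone, the bone under the joint cartilage. The genes were taken by name from the deposited table, and all 45 had exactly 1 row among 22050 annotated genes. The series set a low against a normal temperature in rats. The labels of the 6 libraries, S10, S12, S13, S20, S21 and S23, name the tissue and the cells as subchondral bone and give no temperature, strain, age, sex or treatment. No library was therefore placed in a group, no cold effect was measured, and no test was made over the libraries. Each library keeps its own value below, or the lowest, highest and median are given. No source used here says whether the libraries are separate animals.

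Chaperones bind unfolded protein chains and keep them from clumping until they reach their final shape. HSP70 proteins work with DNAJ partners and hand clients on to HSP90, the barrel-shaped TRiC and HSP60 chaperonins enclose a client, and small heat shock proteins hold unfolded chains without using ATP. In the ER, BiP, GRP94, the lectins calreticulin and calnexin and the disulfide isomerases fold secreted proteins, which in bone include the collagens of osteoblasts. Heat shock factors switch on cytosolic chaperone genes when proteins unfold, and the unfolded protein response does the same for ER chaperones.

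Total counts were 39990624 in S10 to 59200981 in S21. Annotated genes at 1 FPKM or more (fragments per kilobase of transcript, as the authors deposited them) numbered 10624 in S10 to 12086 in S12. Osteoblast markers fitted the labelled tissue: the median of all 10 was 1 FPKM or more, and their FPKM summed to 1781 in S23 and 2488 in S12. Marrow was present as well, with summed erythroid markers of 121126 FPKM in S23 to 326001 FPKM in S10. Hba-a1 alone gave 215071 FPKM of the erythroid sum in S10. Over the 9 expressed erythroid markers, the median deviation from each gene's own median (log2 scale) was -0.29 in S10, 0.28 in S20 and -0.63 in S23. The summed neutrophil markers were 17949 FPKM in S20 to 75873 FPKM in S23. Bulk RNA cannot tell fewer cells of a type from less RNA per cell. The share of counts taken by the 45 genes was 0.766% in S10, 0.859% in S21, 0.902% in S20, 0.907% in S13, 0.916% in S12 and 0.937% in S23. The 95% exact binomial interval (Clopper-Pearson) of each share reached at most 0.00291 percentage points from it, which covers counting error only.

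Most of the chaperone genes were abundant, and fewer of them than of all expressed genes spread widely over the libraries. The median was 1 FPKM or more in 43 of 45 members, 20 FPKM or more in 35 and 100 FPKM or more in 13. Hsp90ab1 led with a median of 408 FPKM, the 186th highest median among the annotated genes, followed by Calr at 369 FPKM and Pdia3 at 218 FPKM. The 2 members under 1 FPKM were Hspa1a and Hspb8. The spread of a gene over the libraries was measured as its range, the highest minus the lowest log2(FPKM + 1), where a range of 1 is about a 2-fold difference. Over the 43 members the median range was 0.49, against 0.83 over the 11625 annotated genes whose median was 1 FPKM or more, called expressed genes from here on. A range of 1 or more was found in 4 members, or 9.3%, against 36.6% of expressed genes. With the minimum raised to a 20 FPKM median, it was found in 1 of 35 members and in 31.1% of 3307 genes. These shares are descriptions of the 6 libraries, since genes are not independent replicates. Under TMM scaling the median ranges were 0.53 and 0.72, and the share was 3 of 43 members against 29.4%. Ranges below are those of the deposited values where no other scaling is named. Over 4 other scalings the range of 38 of the 43 members moved by more than 1.5 times. That count was not made over all expressed genes.

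**Figure D1:**
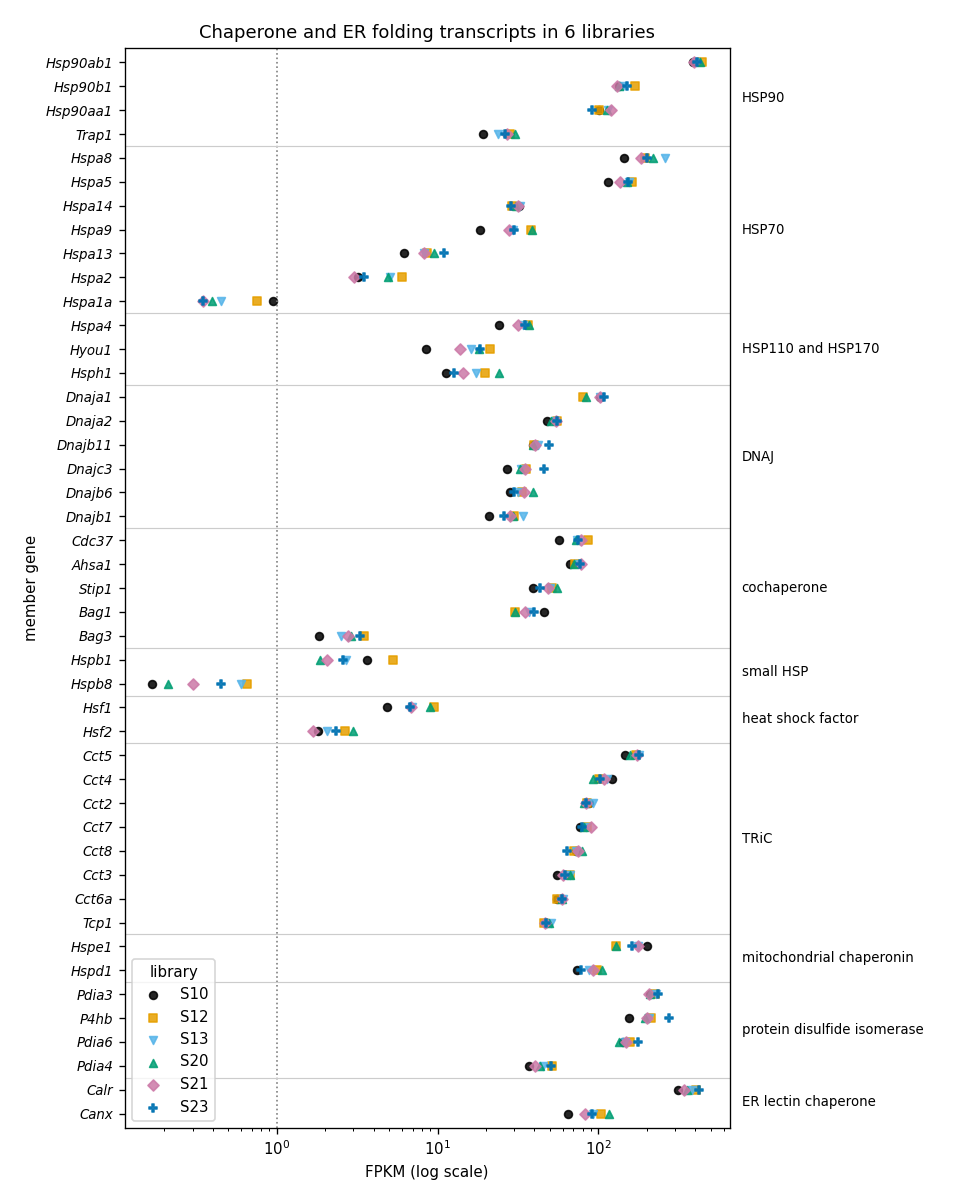
FPKM (horizontal, log scale) of each of the 45 member genes (vertical, grouped by class) in the 6 libraries, 1 symbol per library, with a dotted line at 1 FPKM. Hsp90ab1 and Calr stand at the high end, and Hspa1a and Hspb8 are the genes to the left of the line.

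**Figure D2:**
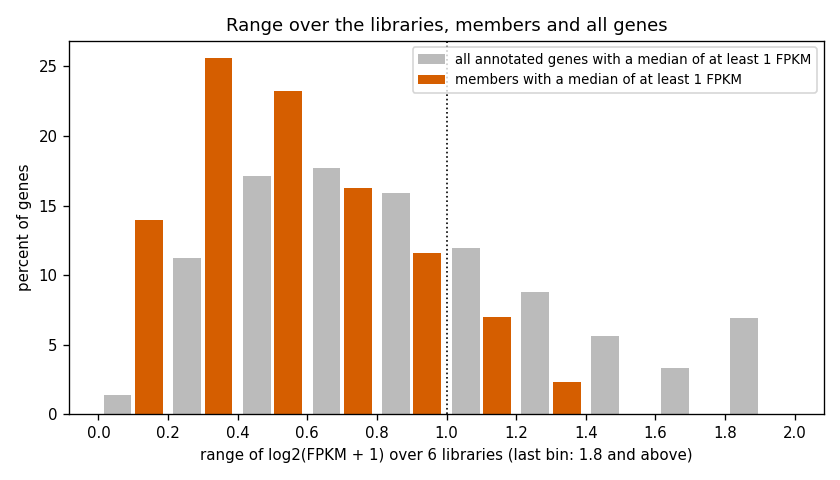
Percent of genes (vertical) by range of log2(FPKM + 1) over the 6 libraries (horizontal, bins of 0.2), for the 43 members and for the 11625 expressed genes. The dotted line is at a range of 1, which 4 members and 36.6% of expressed genes reached.

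HSP90 was represented by its cytosolic, ER and mitochondrial forms. Hsp90ab1 (ENSRNOG00000019834), the constitutive cytosolic HSP90, measured 387 FPKM in S10, 393 in S21, 406 in S13, 409.8 in S23, 427 in S20 and 442 in S12. As deposited the highest value was 1.14 times the lowest, a range of 0.19. The range was 0.42 under TMM scaling, where S10 was the highest library, and 0.51 after scaling to a common sum. Hsp90aa1, the stress-inducible cytosolic form, was lowest in S23 at 91.5 FPKM and highest in S21 at 119.9 FPKM. The level of Hsp90ab1 was thus 3.28 (S21) to 4.48 (S23) times that of Hsp90aa1 within a library. Hsp90b1, which encodes GRP94 of the ER, had a median of 138 FPKM and a range of 0.35. Trap1, the mitochondrial HSP90, had a median of 26.7 FPKM, was lowest in S10 at 19.2 FPKM and highest in S20 at 30.4 FPKM. RefSeq names 23 pseudogenes of Hsp90ab1 and 16 of Hsp90aa1. No source used here says how reads shared with such copies were counted, so the levels of these genes carry that uncertainty.

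Among the HSP70 genes the constitutive Hspa8 far exceeded the inducible Hspa1a. Hspa8 (ENSRNOG00000034066), the cytosolic HSC70, measured 144 FPKM in S10, 183 in S21, 194 in S12, 199.7 in S23, 218 in S20 and 259.9 in S13. As deposited S13 was high and S10 low, and the range was 0.85. The lowest library for Hspa8 was S12 under TMM and median-ratio scaling. S13 also held the highest value under TMM scaling, median-ratio scaling, scaling to a common FPKM sum and correction for gene length. Hspa8 has 33 RefSeq pseudogenes, more than any other member. Hspa1a (ENSRNOG00000045654) measured 0.349 FPKM in S23, 0.351 in S21, 0.396 in S20, 0.449 in S13, 0.754 in S12 and 0.945 in S10, from 36 to 83 counts. Its values were highest in S10 and S12, the libraries in which the ratio of Hspa8 to Hspa1a was lowest, at 152 and 257, against 521 to 579 in the other libraries. The near-identical copy Hspa1b had no row, and Hspa1a overlaps Hspa1l in RefSeq, so the Hspa1a value does not stand for all inducible HSP70. Hspa2, an HSP70 best known from the testis, ranged from 3.02 FPKM in S21 to 6.05 FPKM in S12. Hspa14, a ribosome-associated HSP70, lay between 28.6 and 32.5 FPKM as deposited, a range of 0.18 that was 0.72 under TMM scaling.

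The large HSP70 relatives act as nucleotide exchange factors and were lower than Hspa8. Hspa4 measured 24.1 FPKM in S10, 31.4 in S21, 34.2 in S13, 35.1 in S23, 36.8 in S12 and 37.2 in S20. As deposited only S10 lay below 31 FPKM, and the range was 0.60. S10 stayed lowest for Hspa4 under TMM scaling, at a range of 0.16, but was highest after length correction. Hsph1 (ENSRNOG00000000902), which encodes the heat-inducible HSP105, measured 11.2 FPKM in S10, 12.6 in S23, 14.3 in S21, 17.4 in S13, 19.9 in S12 and 24.1 in S20. S20 was the high library under all 5 scalings tried, the deposited one included. The range of Hsph1 was 1.03 in the deposited values and 1.37 after scaling to a common sum. It was 0.83 under TMM scaling and 0.67 after length correction, so it lay above 1 under some scalings only.

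Heat shock factors bind inverted repeats of the letters GAA. The first 250 bases before the RefSeq start site (assembly GRCr8) were searched on both strands for 3 such units, GAA, TTC and GAA with any 2 bases between neighbours (or its reverse complement, TTC, GAA and TTC), in the 40 members with an entry. Hspa8, Hspd1, Hspe1 and Hsph1 held a match, against 0.663% of all 33469 promoters in the table. The sequences below are shown because they hold these matches, which are in capitals. They lie upstream of the start site and end at the base before it: Hspa8 at chr8:50080414-50080513 on the plus strand, Hspe1 at chr9:64084227-64084326 on the plus strand and Hsph1 at chr12:10427268-10427367 on the plus strand. The other Hspa8 match, 213 to 201 bases before the start, lies outside the stretch shown. Overlapping matches on opposite strands are joined in Hspe1, where they span 65 to 48 bases before the start.
Hspa8: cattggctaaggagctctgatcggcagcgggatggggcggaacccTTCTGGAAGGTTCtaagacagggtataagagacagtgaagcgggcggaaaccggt
Hspe1: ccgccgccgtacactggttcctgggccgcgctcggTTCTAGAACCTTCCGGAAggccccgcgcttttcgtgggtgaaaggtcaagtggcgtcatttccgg
Hsph1: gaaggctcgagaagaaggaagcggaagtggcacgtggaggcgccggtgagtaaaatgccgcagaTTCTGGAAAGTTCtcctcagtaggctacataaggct
A match is a stretch of letters, not a measured binding site. Hspa1a had no match in its window, and from this nothing follows about the factor. The genes with a match did not share a high library in the deposited values: Hspa8 was highest in S13, Hspd1 and Hsph1 in S20, and Hspe1 in S10.

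The heat shock factor genes themselves were low. Hsf1, the main activator of the heat shock response, measured 4.83 FPKM in S10, 6.70 in S23, 6.81 in S21, 6.97 in S13, 9.0 in S20 and 9.46 in S12. S12 was the high library under all 5 scalings. The range of Hsf1 was 0.84 in the deposited values, 0.35 under TMM scaling and 1.11 after scaling to a common sum. Hsf2, its relative, ranged from 1.69 FPKM in S21 to 2.97 FPKM in S20. Transcript levels of these factors do not show their activity, which is set at the protein level.

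Small heat shock proteins were near the lower end. Hspb1 (ENSRNOG00000023546), which encodes HSP27, measured 1.87 FPKM in S20, 2.06 in S21, 2.57 in S23, 2.68 in S13, 3.66 in S10 and 5.26 in S12, from 74 to 221 counts. S12 and S10 were high as deposited, and S10 was the highest under TMM and median-ratio scaling. It was the only member whose range reached 1 under all 5 scalings (1.11 to 1.13), and without S12 its range was under 1. Hspb8 measured 0.169 FPKM in S10, 0.211 in S20, 0.302 in S21, 0.453 in S23, 0.596 in S13 and 0.652 in S12, from 14 to 63 counts. S12 also held the highest sums of skeletal muscle and adipocyte markers. The 7 muscle markers with a row summed to 13.6 FPKM in S20, 18.0 in S23, 28.9 in S10, 51.9 in S21, 64.2 in S13 and 144.7 in S12. The 8 adipocyte markers summed to 294 FPKM in S23, 309.7 in S20, 399 in S21, 447 in S13, 689.8 in S10 and 853 in S12. No marker of either list with a row was at 0 in every library, and the part of these tissues in the Hspb1 and Hspb8 values was not tested.

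DNAJ proteins bring clients to HSP70 and start its ATP cycle. Dnaja1 measured 80.6 FPKM in S12, 84.3 in S20, 103 in S10, 103 in S13, 103 in S21 and 108 in S23. S12 and S20 were the low libraries, and S12 was the lowest under all 5 scalings. Dnaja2, its relative, lay between 47.9 FPKM in S10 and 55.7 FPKM in S23. Dnajb1, the heat-inducible HSP40, ranged from 20.8 FPKM in S10 to 34.1 FPKM in S13, and S13 was its highest library under all 5 scalings, as for Hspa8. Dnajb6, which restrains protein aggregation, ranged from 28.3 FPKM in S10 to 39.5 FPKM in S20.

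Cochaperones steer clients to HSP90 and HSP70 or set the pace of their ATP cycles. Cdc37, which guides kinases to HSP90, measured 56.7 FPKM in S10, 72.5 in S20, 73.9 in S13, 74.3 in S23, 78.3 in S21 and 85.8 in S12. As deposited S10 was low and the other libraries lay within 13.3 FPKM of each other. The lowest library for Cdc37 was S20 under TMM and median-ratio scaling. Ahsa1, which speeds the ATPase of HSP90, had a median of 72.7 FPKM and a range of 0.21. Stip1, the HSP70 to HSP90 adaptor, had a median of 49.3 FPKM and a range of 0.49. Under TMM scaling the order of spread among Ahsa1, Stip1, Cdc37 and Bag3 was turned, with ranges of 0.51, 0.38, 0.31 and 0.25. Bag1 did not follow: its range was 0.60 as deposited and 1.18 under TMM scaling, the widest of the cochaperones among the members. The nucleotide exchange factors Bag1 and Bag3 went different ways in S10. Bag1 was highest there at 46.2 FPKM and lowest in S12 at 30.2 FPKM, whereas Bag3, which serves chaperone-assisted autophagy, was lowest there at 1.84 FPKM and highest in S12 at 3.51 FPKM. The ratio of Bag1 to Bag3 was 25.0 in S10 and 8.59 in S12.

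The 8 subunits of TRiC, the cytosolic chaperonin that folds actin and tubulin, were steady as deposited. Their ranges ran from 0.13 (Cct6a) to 0.39 (Cct4) in the deposited values. Cct5, the most abundant, measured 146 FPKM in S10, 157 in S20, 171 in S12, 175 in S21, 178 in S23 and 179 in S13. Tcp1, the least abundant, stayed between 46.0 FPKM in S12 and 50.7 FPKM in S13. The order was Cct5, Cct4, Cct2, Cct7, Cct8, Cct3, Cct6a and Tcp1 in S10, S12, S13 and S23, and Cct2 and Cct7 changed places in S20 and S21. In S12 these neighbours differed by less than 0.1 FPKM, at 84.6 and 84.5 FPKM. The subunits stand in equal number in the protein complex, but the highest transcript was 3.10 (S10) to 3.78 (S23) times the lowest within a library. A factor applied to a whole library does not alter this ratio. The direction of the subunits between libraries does depend on the scaling. As deposited 1 of 8 (Cct4) was highest in S10, against 11% of expressed genes. All 8 were highest there with TMM (33.1% of expressed genes) or median-ratio scaling (34.1%). It was 7 with length correction (25.8%) and 0 after scaling to a common sum (3.01%). The ranges of the subunits reached 0.95 under median-ratio scaling. Cct6a has 14 RefSeq pseudogenes.

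**Figure D3:**
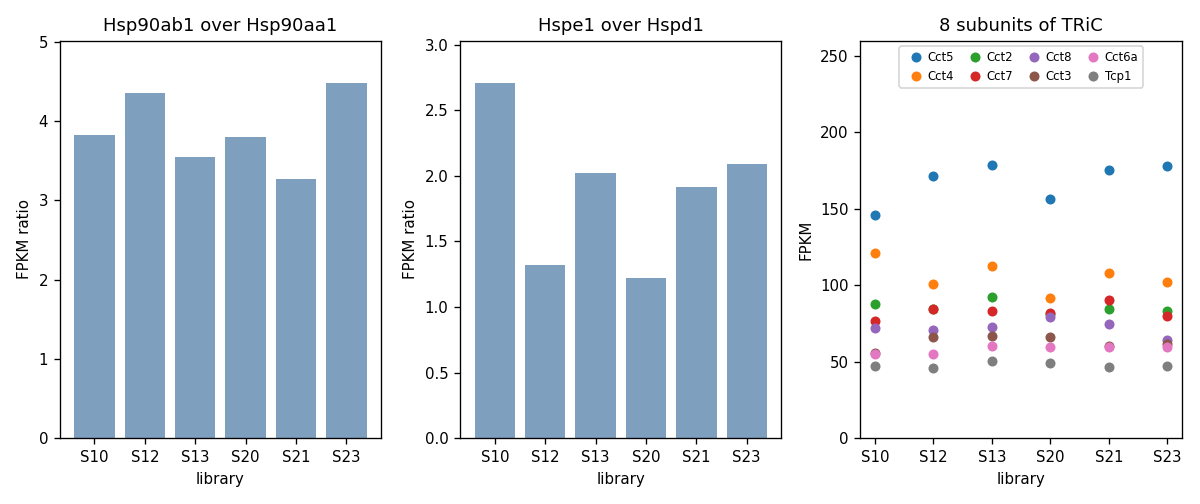
Left and middle, the ratio of FPKM within each library (bars, vertical axis from 0) for the cytosolic HSP90 pair and for the mitochondrial chaperonin pair. Right, FPKM of the 8 TRiC subunits in each library (1 colour per subunit). Hspe1 over Hspd1 runs from 1.22 in S20 to 2.71 in S10, while the TRiC subunits keep nearly 1 order.

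The paired genes of the mitochondrial chaperonin shifted against each other between libraries. Hspe1 (ENSRNOG00000051624), the HSP10 lid of the mitochondrial chaperonin, measured 129 FPKM in S12, 129.5 in S20, 162 in S23, 176 in S13, 177 in S21 and 199.8 in S10. Hspd1 (ENSRNOG00000014525), the HSP60 barrel, measured 73.8 FPKM in S10, 77.6 in S23, 86.9 in S13, 92.4 in S21, 97.8 in S12 and 106 in S20. As deposited, S12 and S20 were low for Hspe1 and high for Hspd1. With TMM or median-ratio scaling S10 was the highest library for both genes. Hspd1 then lay below its own median in S12 (-0.13 on the log2 scale under TMM scaling). A factor applied to a whole library does not alter the ratio of the pair. The ratio of Hspe1 to Hspd1 was 1.22 in S20, 1.32 in S12, 1.91 in S21, 2.02 in S13, 2.09 in S23 and 2.71 in S10. The genes lie head to head in GRCr8, with 290 bases between their RefSeq start sites, and the match printed for Hspe1 is the same stretch that lies 242 to 225 bases before the start of Hspd1. The length implied by counts and FPKM was 292 bases for Hspe1 and 2435 bases for Hspd1. The part of length in the ratio was not tested. RefSeq names 20 pseudogenes of Hspd1, and the spans of the pair overlap there. No source used here says whether counting used strand.

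Hspa9 (ENSRNOG00000019525), the mitochondrial HSP70 that pulls proteins through the import channel, measured 18.3 FPKM in S10, 28 in S21, 29.4 in S13, 29.8 in S23, 37.9 in S12 and 38.6 in S20. S10 was low, and S12 and S20 were high. Hspa9 was the only member with the same highest library (S20) and the same lowest library (S10) under all 5 scalings. Its range was 1.04 as deposited, 0.50 under TMM scaling, 0.47 after length correction and 1.38 after scaling to a common sum. Other lists had the same ends: 9 mitochondrially encoded genes summed to 15160 FPKM in S10 and 34166 FPKM in S20, and 10 proliferation markers to 684 FPKM in S10 and 1066 FPKM in S20. Ribosomal protein genes had them turned round, with 15354.5 FPKM in S10 and 7549 FPKM in S20. Their part in the Hspa9 values was not tested.

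ER folding genes were high as a group, with medians over 12 members from 8.45 FPKM for Hspa13, an HSP70 relative of microsomes, to 369 FPKM for Calr. Calr (ENSRNOG00000003029), the soluble lectin chaperone calreticulin, measured 313 FPKM in S10, 342 in S21, 358 in S20, 380.4 in S13, 406 in S12 and 422 in S23. Its membrane-bound relative Canx measured 64.7 FPKM in S10, 82.8 in S21, 91.6 in S23, 92.1 in S13, 104 in S12 and 117 in S20. As deposited S10 was lowest for both, but the highest library differed, and the ratio of Calr to Canx was 3.07 in S20 and 4.84 in S10. Under TMM and median-ratio scaling Calr was highest in S10 and lowest in S20, and Canx was lowest in S23. The implied lengths were 2041 bases for Calr and 5454 bases for Canx.

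Disulfide isomerases form and shuffle the disulfide bonds of secreted proteins. Pdia3, the partner of both lectins, measured 205 FPKM in S21, 209 in S10, 210.2 in S20, 226 in S12, 228 in S13 and 234 in S23. Its range was 0.19 as deposited and 0.21 after length correction, but 0.54 under TMM scaling, with S10 highest, and 0.52 after scaling to a common sum. P4hb (ENSRNOG00000036689), which is also the beta subunit of the collagen prolyl 4-hydroxylase, measured 155 FPKM in S10, 195 in S20, 200.2 in S21, 208 in S13, 213 in S12 and 273 in S23. As deposited S23 was high and S10 low, a range of 0.82. The lowest library for P4hb was S20 under TMM and median-ratio scaling, with S23 still highest. Pdia6 was also highest in S23, at 176 FPKM against a median of 147 FPKM, and Pdia4 had its peak of 51.7 FPKM in S12 and a median of 44.3 FPKM.

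The ER HSP70 system paired a high chaperone with low exchange factors and partners. Hspa5 (ENSRNOG00000018294), which encodes BiP, measured 114 FPKM in S10, 137 in S21, 150.4 in S20, 153 in S23, 155 in S13 and 161 in S12. Its DNAJ partner Dnajb11 had a median of 40.3 FPKM, and the ratio of Hspa5 to Dnajb11 ran from 2.90 in S10 to 4.02 in S12. Dnajc3, which encodes the cochaperone P58IPK, measured 27.0 FPKM in S10, 32.6 in S20, 33.1 in S13, 34.9 in S21, 35.4 in S12 and 46.1 in S23, and was highest in S23 under all 5 scalings. Hyou1 (ENSRNOG00000010944), the exchange factor GRP170, had a range of 1.23, the widest of the 43 members as deposited. With a pseudocount of 0.1 Hspb1 was wider (1.45 against 1.31). Under TMM scaling Hspe1 (1.22), Bag1 (1.18), Hspb1, Dnaja1, Cct4, Hsph1 (0.83), Hspa14 and Hspa8 were wider than Hyou1. Hyou1 measured 8.51 FPKM in S10, 13.8 in S21, 16.2 in S13, 18.2 in S20, 18.4 in S23 and 21.2 in S12. S10 was its lowest library under all 5 scalings. The range of Hyou1 was 0.67 under TMM scaling, 0.37 after length correction and 1.52 after scaling to a common sum.

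ER stress response elements are the letters through which the unfolded protein response acts on ER chaperone genes. The element, CCAAT, any 9 bases and CCACG, was found on either strand in the 250 bases before the start of Hspa5, Hsp90b1, Canx, Dnajc3 and Calr, against 0.0657% of 33469 promoters. The shorter form, ATTGG, any 1 base and CCACG, was found in Hyou1, against 0.0418% of promoters. All 6 genes belong to the 12 ER members, of which Pdia3 and Pdia6 had no entry and could not be searched. The promoters of 3 of them are printed with the matches in capitals, because they hold the elements of BiP, GRP94 and GRP170. The stretches end at the base before the start site (Hspa5, at chr3:38452916-38453015 on the plus strand) or run over the last 200 bases before it (Hsp90b1, at chr7:23012294-23012493 on the minus strand, and Hyou1, at chr8:53602682-53602881 on the plus strand). Hsp90b1 has a match on each strand, and both matches of Hyou1 lie on the strand opposite to the gene.
Hspa5: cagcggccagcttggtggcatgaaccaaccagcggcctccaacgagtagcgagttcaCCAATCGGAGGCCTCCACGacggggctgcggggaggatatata
Hsp90b1: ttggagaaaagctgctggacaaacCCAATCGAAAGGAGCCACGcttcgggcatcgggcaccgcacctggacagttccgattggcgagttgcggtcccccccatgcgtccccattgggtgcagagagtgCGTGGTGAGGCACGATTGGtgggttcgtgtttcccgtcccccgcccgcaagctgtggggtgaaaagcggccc
Hyou1: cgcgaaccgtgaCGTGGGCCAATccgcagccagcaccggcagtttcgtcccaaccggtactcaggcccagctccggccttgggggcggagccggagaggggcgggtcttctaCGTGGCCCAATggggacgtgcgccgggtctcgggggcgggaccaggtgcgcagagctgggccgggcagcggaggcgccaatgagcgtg
The genes with a match did not share a high library: Hspa5, Hsp90b1 and Hyou1 were highest in S12, Canx in S20, and Calr and Dnajc3 in S23, all in the deposited values.

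The library in which the ER members peaked depended on the scaling. In the deposited values 7 of 12 (Hspa13, Dnajb11, Dnajc3, Pdia3, Pdia6, P4hb and Calr) were highest in S23, against 24% of expressed genes. S23 was the highest for 3 under TMM scaling (16% of expressed genes) and 3 under median-ratio scaling (15.5%). With either of these, S10 was the highest for 6 of the 12 (33.1% and 34.1% of expressed genes). S23 was the highest for 8 with a common sum (32.4%) and 8 with length correction (22.6%). Hspa13, Dnajc3 and P4hb were highest in S23 under all 5 scalings. The summed FPKM of the 12 ER members was 0.871 times that of the cytosolic and nuclear members in S23 and 0.700 to 0.809 times in the other libraries. All 9 expressed neutrophil markers were also highest in S23, where their list summed to 75873 FPKM against 17949 to 45036 FPKM elsewhere. The osteoblast sum was lowest in S23, but 7 of the 10 osteoblast markers were lowest in S10. Their median deviation from each gene's own median (log2 scale) was -0.38 in S10 and -0.13 in S23. The B and plasma cell sum was highest in S12. The part of cell composition in the ER values was not tested.

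**Figure D4:**
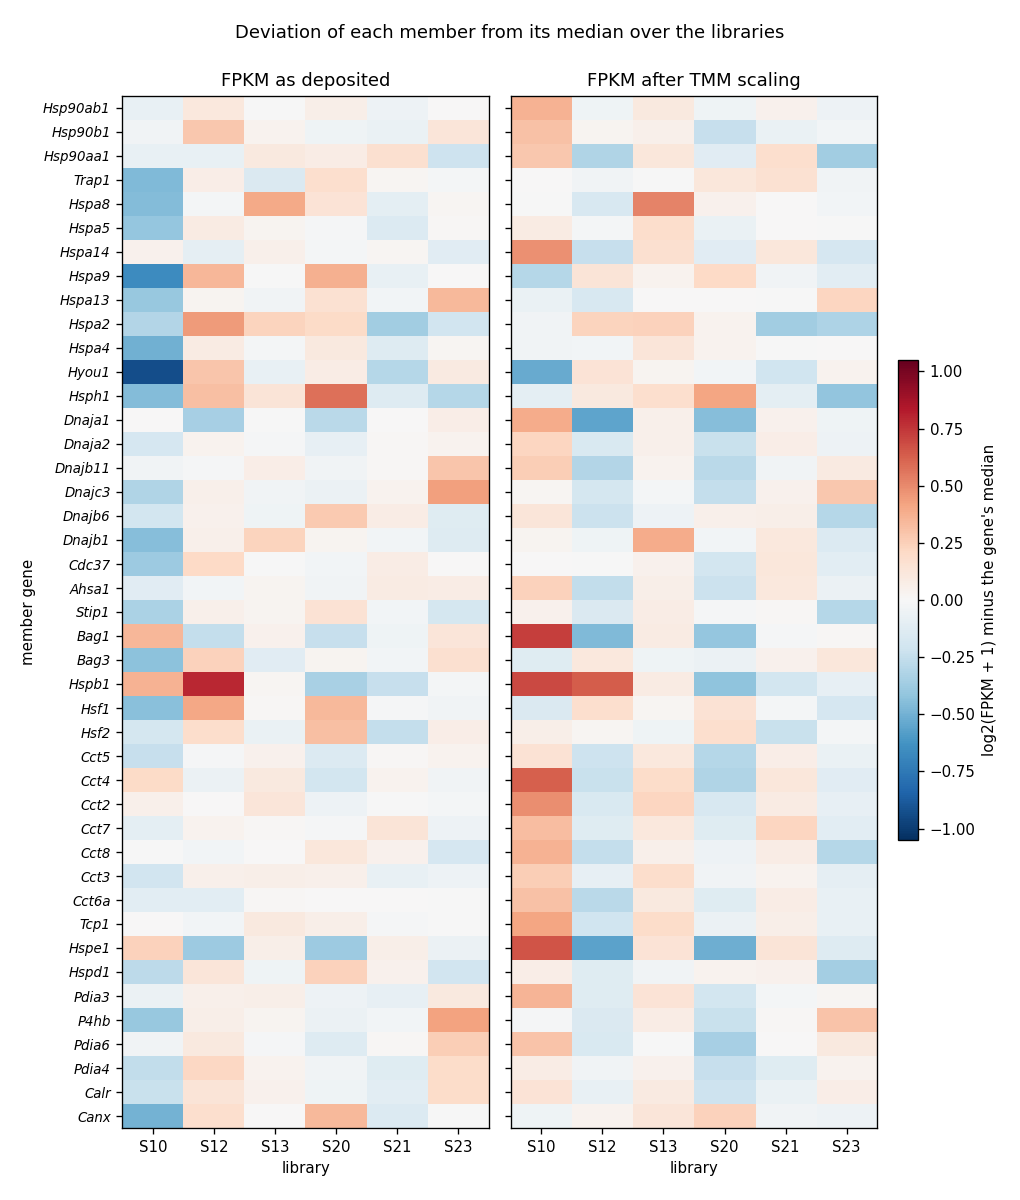
Each cell is log2(FPKM + 1) of a member (rows, 43 genes) in a library (columns) minus the median of that gene, in the deposited values (left) and after TMM scaling (right). S10 is the lowest library of 26 members on the left and the highest of 25 on the right, while Hspa8 in S13 and P4hb in S23 stay high in both.

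Which library was high or low depended on the scaling for most members. As deposited, S10 was the lowest library for 26 of 43 members, or 60.5%, against 60.1% of expressed genes. S12 and S20 were the highest for 10 members each (26.6% and 28.8% of all genes), S23 for 9, S13 for 8 (4.1% of all genes), and S10 and S21 for 3 each (11% and 5.45%). S12 and S20 were the lowest for 5 members each (5.52% and 17.1% of all genes), S21 for 4 (4.77%), S23 for 3 (8.37%) and S13 for 0 (4.09%). The median over expressed genes lay 0.31 below the gene's own median in S10 and 0.14 above it in S12 on the log2 scale. Over the members these medians were -0.20 and 0.06. TMM scaling brought the median over all genes within 0.03 of 0 in every library, and 25 members, against 33.1% of expressed genes, were then highest in S10. Over the 5 scalings, 9 members kept 1 highest library: Hspa8 and Dnajb1 in S13, Hspa9, Hsph1 and Hsf2 in S20, Hspa13, Dnajc3 and P4hb in S23, and Hsf1 in S12. A lowest library was kept by 6: Hspe1, Dnaja1 and Bag1 in S12, Hspa9 and Hyou1 in S10, and Cct4 in S20. The counts of kept libraries were not made over all expressed genes, so they do not set the members apart.

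Members with long transcripts were low in S10, as other long genes were. The 5 members with an implied length of 3500 bases or more (Hspa4, Hspa13, Hsph1, Hyou1 and Canx) were all lowest in S10, and their median deviation there was -0.50. Of the 3 members under 1500 bases (Hspe1, Hspb1 and Bag1) 0 were lowest in S10, and their median deviation was 0.35. Between these lay 21 members of 1500 bases or more but under 2500, at -0.17, and 14 of 2500 bases or more but under 3500, at -0.22. Over all genes in the same 4 length classes the median deviations in S10 were 0.04, -0.20, -0.41 and -0.58, from short to long. The share of all genes that was lowest in S10 was 26.5% under 1500 bases and 90.8% at 3500 bases or more. No RNA quality values were used here, and the part of RNA quality in the trend was not tested.

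**Figure D5:**
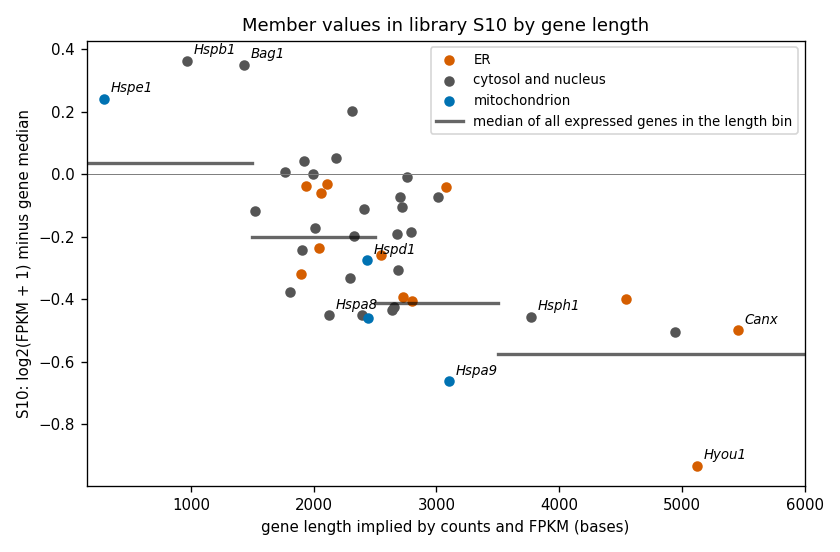
Deviation of the 43 members in S10 (vertical, log2(FPKM + 1) minus the gene's median) by the gene length implied by counts and FPKM (horizontal, bases), coloured by compartment. Black lines are medians of all expressed genes per length class. Hspe1, Hspb1 and Bag1 lie above 0 at the short end, and Hyou1 and Canx lie below -0.4 at the long end.

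As deposited, other genes of protein folding reached a range of 1 more often than the members. Of 89 further genes 85 had a row and 78 were expressed. A range of 1 or more was found in 19 of the 78, or 24.4%, against 36.6% of all genes and 9.3% of the members. The share of these further genes was not worked out under other scalings, nor at levels or lengths matched to the members. Among 26 further cytosolic chaperones and cochaperones, 4 reached a range of 1: Dnajc5 (1.90), Bag6 (1.34), Fkbp5 (1.13), an HSP90 cochaperone that glucocorticoids induce, and Bag4 (1.01). All 4 were lowest in S10, as 60.1% of expressed genes were. The most abundant of that list were Ptges3, the HSP90 cochaperone p23, at a median of 130.0 FPKM and Dnajc9, a histone chaperone, at 92.5 FPKM. Every subunit of prefoldin, which delivers actin and tubulin to TRiC, was highest in S10 as deposited, against 11% of expressed genes. Vbp1 had 168 FPKM there and 125 FPKM in S12, and Pfdn5 had 126 FPKM there and 46.5 FPKM in S20. The implied lengths of the subunits ran from 704 bases for Pfdn5 to 1824 bases for Pfdn2. The part of length in these values was not tested. Ranges of Pfdn5 and Pfdn1 were 1.42 and 1.36. Of 10 mitochondrial chaperones and proteases only Grpel2 reached a range of 1 (1.01), and Grpel1 and Lonp1 led with medians of 44.2 and 30.8 FPKM.

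Among 26 further ER folding genes 7 reached a range of 1, against 36.6% of expressed genes. The cyclophilin Ppib and the secreted stress factor Manf led with medians of 192 and 178 FPKM. The widest ranges were those of Pdia5 (1.84), Ero1a (1.58), which passes oxidizing power to the disulfide isomerases, Sel1l (1.41) of ER-associated degradation, Uggt1 (1.39), the sensor of glycoprotein folding, Sdf2l1 (1.09) and Ganab (1.03). Ero1a measured 3.99 FPKM in S10, 8.71 in S21, 9.10 in S13, 10.7 in S12, 11.1 in S20 and 13.9 in S23. Sdf2l1, a partner of BiP, ranged from 48.9 FPKM in S20 to 105 FPKM in S23. S23 was the highest library for both, but over the 26 genes S12 was the highest for 12 and S23 for 7, against 26.6% and 24% of expressed genes.

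Of 10 genes of the unfolded protein response 5 reached a range of 1 or more, against 36.6% of expressed genes. Atf4, the factor of the integrated stress response, led with a median of 202 FPKM and a range of 0.45. Xbp1, the factor activated by IRE1 and needed by plasma cells, measured 42.8 FPKM in S10, 53.6 in S20, 62.5 in S21, 67.9 in S13, 77.4 in S12 and 96.6 in S23. As deposited S23 was high and S10 low. Xbp1 was the 1 gene of the 10 that peaked in S23, and 3 peaked in S12, against 24% and 26.6% of expressed genes. The other 4 were Creb3l2 (1.53), Atf6 (1.46), Ppp1r15a (1.07) and Trib3 (1.07). Of the 10 genes 7 were lowest in S10, Xbp1, Atf6, Creb3l2 and Trib3 among them, against 60.1% of expressed genes. Ppp1r15a, which restores translation after stress, was lowest in S23 at 33.2 FPKM and highest in S20 at 70.9 FPKM.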

How the data were processed

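The 6 rat subchondral bone libraries were made with a SMARTER mRNA-Seq kit, per the labels' protocols. The deposited table gives a count, a whole number per gene with no normalization, and an FPKM value scaled by the authors, per the file headers. Aligner and counter: not given in the sources used here. The submitters' processing notes name GRCm38 and mm10, mouse builds, while row IDs are rat Ensembl IDs, so no coordinates were taken from the table. Of 30610 rows, 10 without values were left out, and 0 value columns were unused.

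Ranges used log2(FPKM + 1) and a minimum median of 1 FPKM. Gene length was that implied by counts and FPKM. Levels between genes were compared as FPKM. The TMM alternative used edgeR 4.0.16, with Python 3.11.15 for the rest. The range call was checked on simulated data with known folds. The simulated libraries held no trend with gene length and no difference in composition. The check therefore does not cover such shifts between the real libraries. Promoters are from RefSeq (GRCr8), which held 40 of 45 members. Dnaja2, Hsf1, Hsp90aa1, Pdia3 and Pdia6 had no entry. Of 45 members, 11 overlap another named gene in RefSeq.

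Full values were given for the most abundant member of each class, for members with a range of 1 or more and for those under 1 FPKM. From each further list the most abundant 2 genes and up to 6 with the widest ranges of 1 or more could be named. Hspa5, Hspd1, Canx, P4hb, Dnajc3, Ero1a, Xbp1 and the ratios were chosen after their values were seen, and the members and lists with earlier results of these data known. Samples had no groups, so no test between them was made.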

Additional observations from a re-analysis of the deposited data

How the results depend on the processing

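The number of members with a range of 1 or more was 4 as deposited, with a pseudocount of 0.1 and with no minimum on FPKM, 3 with a minimum of 5 FPKM, under TMM and under median-ratio scaling, 11 after scaling to a common sum, 1 after length correction and 1 with a minimum of 20 FPKM. Leaving out each library gave 1 to 4, and the 1 was without S10. Length correction and the 20 FPKM minimum were added after the data were seen. The share of all genes was larger than that of the members in each of these settings, and ran from 13.5% without S10 to 51.1% after scaling to a common sum. The called genes were not the same: TMM and median-ratio scaling called Bag1, Hspb1 and Hspe1. With no minimum on FPKM the median range over all genes was 0.46, under the 0.49 of the members.

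The members highest in S10, S12, S20 and S23 numbered 25, 2, 4 and 4 under TMM scaling (33.1%, 13.4%, 23.8% and 16% of expressed genes). Under median-ratio scaling those highest in S10, S12, S13, S20 and S23 numbered 25, 4, 5, 4 and 3 (34.1%, 13.8%, 5.96%, 23.8% and 15.5%). After scaling to a common sum those highest in S10, S13, S21 and S23 numbered 0, 2, 0 and 16 (3.01%, 2.0%, 3.15% and 32.4%). After length correction those highest in S10, S12, S13 and S20 numbered 18, 4, 4 and 6 (25.8%, 14.4%, 5.84% and 23.9%). The members lowest in S10 numbered 4 with either TMM (32.8% of expressed genes) or median-ratio scaling (31.9%), 6 with length correction (29.6%) and 38 with a common sum (75.4%). Leaving out 1 library gave 3 to 5 members highest in S10, 10 to 18 in S12 (18 without S20), 8 to 10 in S13, 10 to 14 in S20, 3 to 5 in S21 and 9 to 13 in S23, and 26 to 29 lowest in S10. The cause of these shifts was not tested.

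The median ratio of the highest to the lowest TRiC subunit, 3.62, was 3.52 to 3.72 without 1 library. No member had 2 rows, so summing rows changed nothing. No paired analysis was possible because the libraries have no groups and no replicate numbers. The depth left Hspa1a and Hspb8 with 14 to 83 counts in a library, where counting error is largest.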
